A study of Mus musculus with 15 samples.

Results

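The nuclear genes of oxidative phosphorylation encode the proteins that turn the energy of respired nutrients into ATP. They were taken as the protein-coding genes of the GENCODE M21 annotation (build mm10) on chromosomes 1 to 19 and X whose symbol begins with Nduf, Uqcr, Cox4 to Cox8 or Atp5, together with Sdha, Sdhb, Sdhc and Sdhd. This choice by name gave 94 gene records under 93 symbols of 21755 protein-coding records, with a median length of 7.42 kb and a range of 0.953 to 242.6 kb. Atp5o accounts for 2 records, an ordinary gene and a long record (ENSMUSG00000116933.1) of which 97.7% is overlapped by the records of Itsn1, Cryzl1, Donson and Atp5o. The rule reads gene names alone.

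Electrons enter the respiratory chain in the inner mitochondrial membrane at complex I, the NADH dehydrogenase whose subunits carry Nduf names, or at complex II, the succinate dehydrogenase. They pass through complex III (Uqcr genes) and cytochrome c to complex IV, the cytochrome c oxidase, and the proton gradient that results drives complex V, the ATP synthase (Atp5 genes). A small number of the subunits are encoded by mitochondrial DNA, and all others must be transcribed in the nucleus, where the genes are active in nearly every cell type and several subunits of complex IV have a second, tissue-restricted copy.

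Called regions of 10 CUT&RUN libraries of mouse bone marrow-derived macrophages (BMDMs) were analyzed, 2 per group. In CUT&RUN an antibody directs a nuclease to its target in intact nuclei, and the cut DNA is read by sequencing. The antibodies recognised an HA tag on the histone variant H3.3, acetylation of lysine 27 of histone H3 (H3K27ac), found at active promoters and enhancers, and trimethylation of lysine 36 (H3K36me3), which is laid down along transcribed gene bodies. The comparison between genotypes addressed how the marks lie when macrophages develop without H3.3. Wild-type (WT) cells carried floxed H3f3a and H3f3b, which both encode H3.3, and no Cre. Conditional knockout (cKO) cells carried the same floxed alleles with LysM-Cre on both alleles of the myeloid lysozyme gene Lyz2. H3.3-HA cells came from mice with an HA tag in H3f3b. All mice were of C57BL/6 background, male or female and 8 to 10 weeks old, and the bone marrow was cultured for 6 to 8 days in medium with L929 supernatant. LysM-Cre acts in myeloid cells during the culture, and the deletion of H3f3b was described by the study as variable in extent.

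Libraries held 5365319 to 29988098 tags. The cKO H3K36me3 library of replicate 1 stood apart, with 90.6 Mb covered by regions against 163.3 to 170.3 Mb in the other 3 H3K36me3 lists. Results that rest on it are given with and without it. The shared fraction of covered length between replicates (Jaccard index) was 0.745 for WT and 0.521 for cKO H3K36me3, 0.541 and 0.520 for H3K27ac, and 0.348 for H3.3-HA. The lists did not show the deletion, while the study reported depletion of H3.3 RNA and protein in cKO BMDMs. H3K36me3 regions covered 72.3% and 77.8% of H3f3a in WT and 67.9% and 73.0% in cKO. They covered 10.7% and 14.2% of H3f3b in WT and 39.6% and 33.6% in cKO, so each direction rests on the labels. Of 8 macrophage genes, 8 had H3K36me3 in the body in at least 1 of the 4 lists and 8 had promoter H3.3-HA in both lists. Csf1r, Itgam, Adgre1, Spi1 and Mertk were not called different in H3K36me3. Cd68, with 0% in both WT and 100% in both cKO libraries, and Lyz2, which carries the Cre in cKO, were higher in cKO. Cd14 was lower, with 38.05% and 24.5% in WT and 0% in both cKO libraries. No H3K36me3 region lay in any of 5 neutrophil, 4 erythroid or 5 fibroblast genes, and 1 of 4 T cell and 1 of 4 B cell genes had one. Promoter H3.3-HA stood in both lists at 2 of the 5 neutrophil genes (S100a8 and Elane), at Lck of the T cell and at Ms4a1 of the B cell genes. Elane also had promoter H3K27ac in the cKO lists alone, and Ms4a1 had it in all 4. The part of other cells in the results was not tested.

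H3K36me3 regions lay over the bodies of 87 of the 94 members in at least 1 of the 4 lists, against 11156 of all 21755 genes. The regions covered a median of 45.9% and 47.6% of a member's body in the WT libraries. In cKO the median was 19.4% in replicate 1 and 44.9% in replicate 2, so the cKO libraries differed from each other by more than the mean of the cKO pair differed from that of the WT pair. Over all genes the median was 0% in every list. Over the genes with a region in a list it was 39.0% and 41.9% in WT and 15.9% and 40.9% in cKO, so replicate 1 was the low library in all genes as well.

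**Figure D1:**
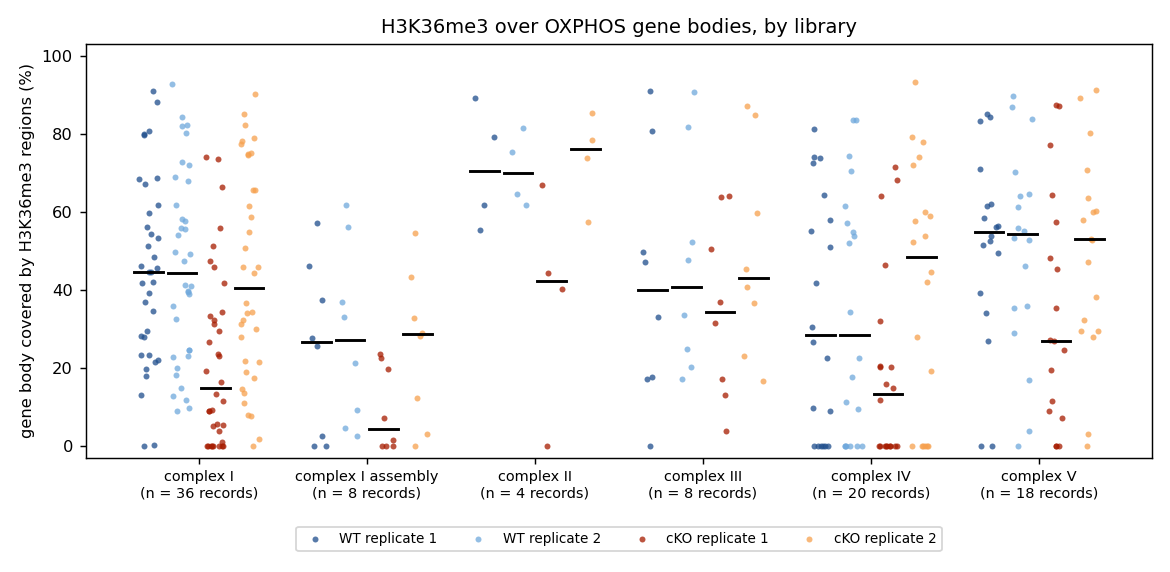
Percent of each gene body covered by H3K36me3 regions (y axis) for the 94 gene records by complex (x axis), 1 point per gene and library, with black bars for medians. The medians of cKO replicate 1 lie below those of the other 3 libraries in every complex, and 7 genes sit at 0 in all 4.

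Complex II had the highest median of WT coverage, 70.2% over 4 genes, with Sdha, the flavoprotein that oxidizes succinate, at 85.2% ± 5.48 (SD, n = 2). Complex V followed with 52.8% over 18 records and complex I with 45.9% over 36. Complex III had 40.4% over 8, complex IV 32.3% over 20, and the 8 assembly factors of complex I 29.4%. Within complex I single genes ranged from 5.89% to 92.0%, a spread wider than the distance between the medians of the complexes. Length also moved with coverage. Members under 5 kb had a median of 27.1% (31 records), those of 5 to 20 kb 52.3% (48 records) and those over 20 kb 52.2% (15 records), against 0%, 0% and 6.80% for all genes in the same classes.

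The 10 members with the highest WT coverage lay between 80.1% and 92.0%. Ndufs1, the largest iron-sulfur subunit of complex I, had 91.1% and 92.9% in WT and 73.6% and 90.1% in cKO. Uqcrc2, a core protein of complex III, had 91.1% and 90.6% in WT and 63.7% and 87.2% in cKO. The others were Atp5f1 (peripheral stalk of the ATP synthase), Ndufa10 and Ndufa9 (accessory subunits of complex I), Atp5b and Atp5a1 (the catalytic β and the α subunit of the ATP synthase), Sdha, Uqcrc1 (a core protein of complex III) and Ndufs3 (an iron-sulfur protein subunit). In cKO replicate 2 these 10 genes kept 74.9% to 91.2%, and in cKO replicate 1 they had 33.3% to 87.5%. Atp5f1, Atp5b and Atp5a1 were the closest to WT in that library. Atp5b had 84.4% and 86.9% in WT and 87.0% and 89.2% in cKO, and the groups differed by 2.42 points.

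A list of 17 central subunits held selected nuclear core and catalytic subunits of complexes I, II, III and V. It left out Uqcrc2 and cytochrome c1 (Cyc1) of complex III and Sdhc and Sdhd of complex II. The catalytic core of complex IV is encoded by mitochondrial DNA, and from its supernumerary nuclear subunits the list took Cox4i1, Cox5a and Cox5b. All 17 carried H3K36me3 in at least 1 list, with WT means from 10.5% to 92.0% and a median of 60.2%. Ndufv1 and Ndufv2, which form the NADH-oxidizing end of complex I, had 48.4% and 41.1% and 44.6% and 49.8% in WT. In cKO Ndufv1 had 9.24% and 61.5% and Ndufv2 13.5% and 45.8%. Both genes were thus low in cKO replicate 1 alone. Cox5b, a zinc-binding subunit of complex IV, had the lowest WT mean of the group, with 9.76% and 11.2% in WT and 0% and 58.9% in cKO. Uqcrfs1, the Rieske iron-sulfur protein of complex III, had 17.6% and 20.3% in WT and 12.98% and 16.6% in cKO. Sdhb, the iron-sulfur subunit of complex II, had 61.7% and 64.5% in WT and 44.2% and 73.9% in cKO. The cKO values enclosed the WT values at Sdhb and Cox5b and lay below them at Uqcrfs1, by less than the gap required for a call.

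Along the gene bodies the mark began late. Each body was split into 10 bins of equal length. In bin 1, at the start, WT regions covered a mean of 1.4% and 1.3% of the members' length, in bin 5 44.9% and 42.1% and in bin 10 72.5% and 77.9%. In cKO bin 10 had 40.2% in replicate 1 and 73.7% in replicate 2. All genes with H3K36me3 had 6.92% and 7.46% in bin 1 and 55.6% and 57.8% in bin 10 in WT.

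**Figure D2:**
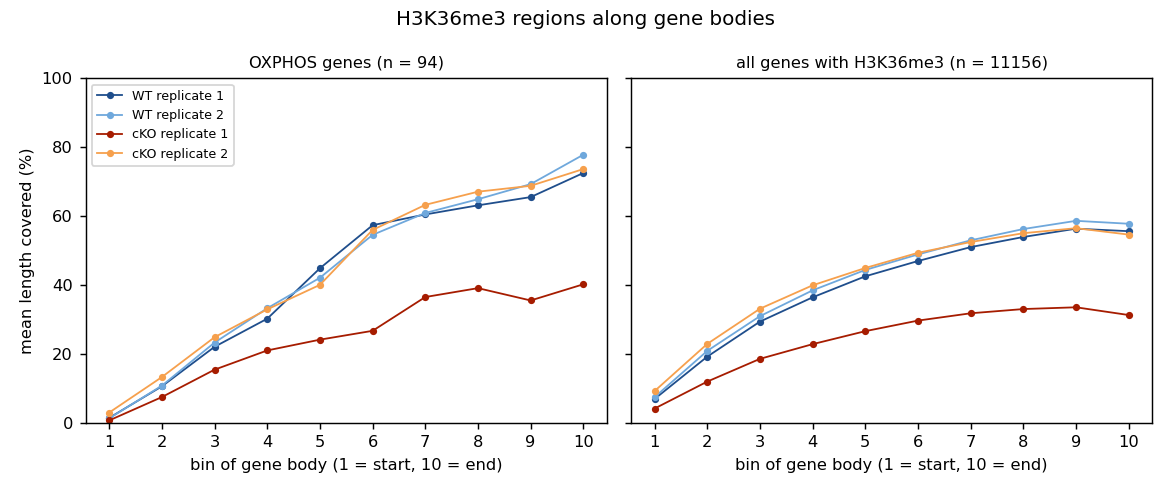
Mean percent of length covered by H3K36me3 regions (y axis) in each of 10 bins of the gene body from start to end (x axis), per library, for the 94 gene records and for the 11156 genes with the mark in a list. Coverage of the members climbs from 1.4% and 1.3% in bin 1 to 72.5% and 77.9% in bin 10 in WT, and the line of cKO replicate 1 runs lowest.

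7 members had no H3K36me3 region in any list. 6 of them were tissue-restricted copies, namely Cox4i2, Cox6a2, Cox6b2, Cox7b2, Cox8c and Ndufa4l2. The other was Atp5k, subunit e of the ATP synthase, whose record is 1.21 kb long and whose promoter carried H3K27ac in all 4 lists. Cox6a2 lies wholly inside the record of Itgad.

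The paralogs of complex IV separated by type. The ubiquitous copies Cox4i1, Cox6a1, Cox6b1, Cox7a2, Cox7b, Cox8a and Ndufa4 (once placed in complex I) carried H3K36me3 in 7 of 7 cases, with WT means between 26.6% and 78.8% and a median of 62.9%. The 8 copies listed as tissue-restricted, among them forms typical of muscle, lung or testis, had a median of 0%, and 2 of 8 had a region. Cox4i1, the regulatory subunit 4, had 81.2% and 74.3% in WT and 71.5% and 79.2% in cKO, while Cox4i2 had 0% in all 4. The body of Cox4i1 is wholly overlapped by other records, among them Emc8. Cox7a2 had 58.0% and 57.0% in WT and 15.9% and 60.1% in cKO. Its muscle counterpart Cox7a1 had 8.94% and 9.61% in WT and 0% and 44.6% in cKO.

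Both tissue-restricted genes with H3K36me3 were reached by long regions. Cox8b, the muscle form of subunit 8, is 1.5 kb long and had 26.6% and 53.7% in WT and 0% and 27.9% in cKO. Its WT regions ran over 15172 bp (chr7:140884172-140899343) and 15715 bp (chr7:140884037-140899751), and overlapped the 3′ end of the gene on the minus strand. At Cox7a1 the WT regions (chr7:30185906-30193408 and chr7:30185893-30193329) overlapped the last bases of the gene and continued beyond it. In cKO replicate 2 Cox7a1 also had a region of 501 bp at its start. These genes therefore shared a region with neighbouring sequence in WT, and no promoter H3K27ac was called at either in WT.

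**Figure D3:**
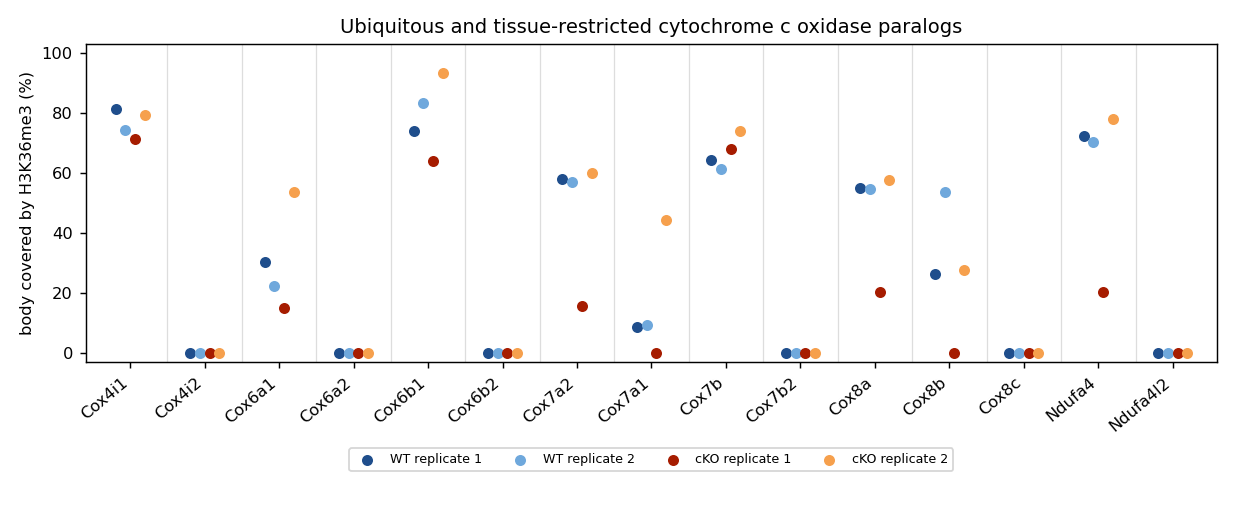
Percent of gene body covered by H3K36me3 regions (y axis) in each of the 4 libraries for ubiquitous complex IV genes and their tissue-restricted copies (x axis, pairs side by side). Cox4i2, Cox6a2, Cox6b2, Cox7b2, Cox8c and Ndufa4l2 sit at 0 in all 4 libraries, while every ubiquitous copy lies above 0.

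Genotypes were compared gene by gene. A member was called where both cKO libraries lay above, or below, both WT libraries by at least 10 percentage points of body coverage. With 2 libraries against 2 the exact two-sided permutation test cannot give a p below 0.333, so no member could pass the usual threshold and the calls describe groups that did not overlap. Of 87 members 2 were higher in cKO, or 2.3%, against a background of 2.64% of 11156 genes. In the other direction 6 members were lower in cKO, or 6.90%, against 10.9%. The share of lower members stood below the background, and that of higher members rests on 2 genes and was near it. The control directories named in the file headers differ between WT and cKO libraries, so genotype and control cannot be told apart.

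The higher members both belong to complex I. Ndufs8, a core iron-sulfur subunit on chromosome 19, had 54.5% and 39.5% in WT and 66.3% and 77.4% in cKO, a difference of 24.9 points. Ndufa2, an accessory subunit on chromosome 18, had 29.5% and 24.7% in WT and 41.8% and 44.3% in cKO, a difference of 16.0 points. The groups did not overlap at either gene. Tmco6 overlaps 2.965% of the Ndufa2 body, and a region in that stretch can belong to either gene.

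Of the lower members, 5 encode accessory subunits of complex I. Ndufb2 had 56.2% and 67.8% in WT and 8.97% and 36.7% in cKO. Ndufa3 had 21.6% and 47.5% in WT and 1.15% and 0% in cKO. Ndufa13, also described as the cell death regulator GRIM-19, had 37.0% and 41.1% in WT and 0% and 11.1% in cKO. The call itself requires both cKO values, that of replicate 2 included, to lie below both WT values. Replicate 2 resembled WT in covered length. Ndufb7 had 34.5% and 38.9% in WT and 0% and 21.8% in cKO. Ndufb3 had 28.1% and 18.1% in WT and 5.23% and 7.91% in cKO. Ndufaf1, an assembly factor of complex I, had 57.2% and 61.7% in WT and 22.6% and 43.3% in cKO. Mean differences ran from -16.6 points at Ndufb3 to -39.2 points at Ndufb2. The body of Ndufa13 is wholly overlapped by the records of Yjefn3 and Tssk6. Other records, among them Braf, overlap 38.6% of the Ndufb2 body, and Tfpt overlaps 0.14% of the Ndufa3 body.

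The count of lower members rested on cKO replicate 2. Without that library 52 members were lower (59.8%), against 54.1% of all genes, whereas 6 were lower without cKO replicate 1 (6.90%), against 11.1%. Without WT replicate 2 the count was 14 of 86 (16.3%), against 14.2%. The share of lower members thus stood above the background when WT replicate 2 or cKO replicate 2 was left out. Without WT replicate 1 it was 10.3%, against 17.1%. Higher members numbered 7 without cKO replicate 1 (8.05%), against 13.7% of all genes. The median of cKO replicate 1 minus the WT mean was -18.4 points over the 87 members, with 79 below 0, and -13.9 points over all genes. The same difference for cKO replicate 2 was 0.57 points, with 49 members above and 38 below 0.

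Promoter H3K27ac was read in a window of 1 kb on each side of the gene start, 2001 bp in all. It was present in both WT lists at 55 of 94 members (58.5%), against 28.1% of all genes, and in both cKO lists at 67 members (71.3%), against 32.2%. The order of the 2 genotypes was thus the same in members and in all genes. A region in all 4 lists was found at 49 members. They included Sdha, Sdhb and Sdhd, Uqcrc2 and Uqcrfs1, Cox5a and Cox5b, and Atp5a1, Atp5c1 and Atp5o. No list had one at 13 members. Among these were 7 tissue-restricted genes and Atp5d, Atp5g2, Cox7a2l, Ndufa11 and the long Atp5o record. Atp5d and Cox7a2l have a gene record that starts 2825 and 3000 bp from the nearest start of a coding transcript.

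By complex, both WT lists had promoter H3K27ac at 23 of 36 complex I members, 4 of 4 of complex II, 7 of 8 of complex III, 5 of 20 of complex IV and 12 of 18 of complex V. In cKO the counts were 26, 3, 7, 11 and 14. Of the assembly factors of complex I 4 of 8 had it in WT and 6 in cKO. Of the ubiquitous complex IV copies, 1 of 7 had the mark in both WT lists and 6 of 7 in both cKO lists. Of these 7, 6 had it in at least 1 WT list, with 3 in WT replicate 1 and 4 in WT replicate 2, and 6 and 7 had it in the cKO lists. Of the 17 central subunits, 10 had it in both WT lists and 14 in both cKO lists. These differences were not tested.

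A region in both cKO lists and neither WT list was found at 5 members (5.32%), against 4.13% of all genes. The reverse held for 1 member (1.06%), against 1.66%. With all 4 lists members were thus called at shares near the background. Atp5l, subunit g of the ATP synthase, had the largest contrast, with 0 bp in both WT lists and all 2001 bp in both cKO lists. Ndufaf8, an assembly factor of complex I, had 0 and 0 bp in WT and 1051 and 1621 bp in cKO. The start of Tepsin lies within 1 kb of that of Ndufaf8, so this window is shared. Cox6a1, the ubiquitous subunit 6a, had 0 and 0 bp in WT and 790 and 1450 bp in cKO. Cox7a1, the muscle form of subunit 7a, had 0 and 0 bp in WT and 643 and 633 bp in cKO. Ndufs7, a core iron-sulfur subunit, had 0 and 0 bp in WT and 241 and 1240 bp in cKO. The cKO region at Atp5l spanned 3575 and 3816 bp, so the whole window was filled. With a minimum region width of 1 kb the call stayed at 2 of these 5 genes. The number of such members was 12 when WT replicate 2 was left out (12.8%), against 6.67% of all genes, and 11 when WT replicate 1 was (11.7%), against 7.24%. With a WT list left out the members were thus called at a share above that of all genes. Without cKO replicate 1 there were 8 (8.51%), against 6.79%, and without cKO replicate 2 there were 6 (6.38%), against 4.67%. However, 81 of 94 members had promoter H3K27ac in any list, against 9775 of 21755 genes, and a gene without it cannot be called. The shares over all members and all genes therefore cannot separate a difference between genotypes from the more frequent marking of members. Among genes with promoter H3K27ac in any list, 5 of 81 members were called with all 4 lists. Of all such genes 899 of 9775 were called, so on that base the share of members was the lower.

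The member with the reverse pattern was Ndufb11, an X-linked accessory subunit of complex I, with 991 and 360 bp in WT and 0 bp in both cKO lists. Its WT regions lay on both sides of the start and did not cover it. The start of Rbm10 lies within 1 kb, so the window is shared. Without cKO replicate 2 there were 6 such members (6.38%), against 4.84% of all genes, and without WT replicate 1 there were 2 (2.13%), against 2.40%. With a window of 500 bp on each side no member was called, against 1.5% of all genes.

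**Figure D4:**
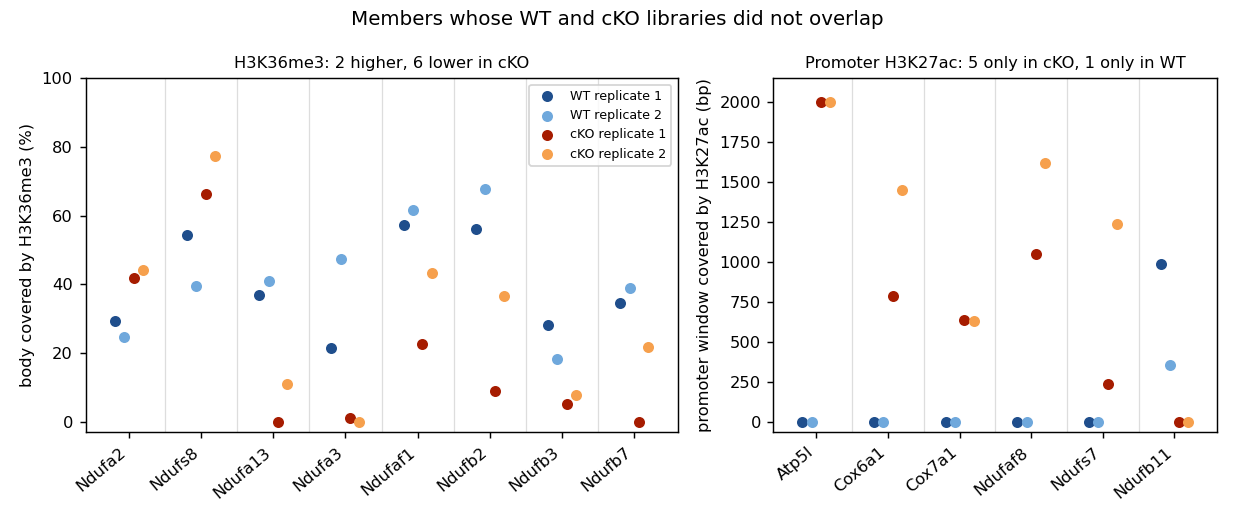
Values in each WT and cKO library for the members whose groups did not overlap. The left panel plots percent of body covered by H3K36me3 and the right panel bp of the 2001 bp promoter window covered by H3K27ac. At Atp5l both cKO points reach 2001 bp and both WT points lie at 0.

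The sequences before the starts are shown for 4 of the 5 members with promoter H3K27ac in cKO lists alone, and for 2 to set beside them. Cox7a2 is the ubiquitous partner of Cox7a1, and Atp5o had all 2001 bp covered by H3K27ac in every list. Each run is the 150 bases before the GENCODE start, 5′ to 3′ on the strand of the gene, from the RefSeq promoter table (GRCm38.p6, the assembly of mm10). Capitals mark motif matches on either strand, and lower case all other bases.
Atp5l (chr9:44920743-44920892, minus strand): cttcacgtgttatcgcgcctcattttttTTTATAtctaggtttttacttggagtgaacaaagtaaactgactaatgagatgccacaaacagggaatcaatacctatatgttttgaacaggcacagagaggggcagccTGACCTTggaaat
Cox6a1 (chr5:115348982-115349131, minus strand): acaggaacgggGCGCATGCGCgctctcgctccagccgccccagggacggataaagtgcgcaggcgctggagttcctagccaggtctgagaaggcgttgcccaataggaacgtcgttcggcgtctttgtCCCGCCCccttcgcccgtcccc
Ndufaf8 (chr11:120098778-120098927, plus strand): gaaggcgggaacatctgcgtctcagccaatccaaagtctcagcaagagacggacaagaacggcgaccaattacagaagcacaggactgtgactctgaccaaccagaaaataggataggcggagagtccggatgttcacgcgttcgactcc
Cox7a1 (chr7:30183994-30184143, plus strand): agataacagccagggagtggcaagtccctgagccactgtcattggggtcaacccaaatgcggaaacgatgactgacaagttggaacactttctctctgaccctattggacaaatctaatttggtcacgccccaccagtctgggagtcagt
Cox7a2 (chr9:79759879-79760028, minus strand): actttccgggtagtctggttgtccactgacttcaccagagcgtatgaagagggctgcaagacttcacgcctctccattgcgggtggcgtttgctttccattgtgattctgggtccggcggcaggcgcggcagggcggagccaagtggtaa
Atp5o (chr16:91931688-91931837, minus strand): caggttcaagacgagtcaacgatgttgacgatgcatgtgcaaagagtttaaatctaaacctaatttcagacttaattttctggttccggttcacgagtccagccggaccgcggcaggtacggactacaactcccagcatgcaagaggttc
Atp5l held a TATA box on the reverse strand and an ESRRA element, AAGGTCA, also on the reverse strand and close to the start. Cox6a1 held 2 overlapping matches to the NRF1 core on opposite strands and a GC box. The other 4 runs held none of the searched letters within the 150 bases printed.

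Motifs were counted over the 300 bp of the table, from 250 bp before to 50 bp after the RefSeq start, on both strands. Of the 94 records 71 had an entry within 1 kb of the gene start, and of all genes 14215. NRF1 and GABP are known activators of nuclear genes for mitochondrial proteins. The NRF1 core GCGCATGC was found in 11 of 71 members (15.5%) and 4.12% of all promoters. The letters CCGGAAG, read by ETS factors such as GABP, were found in 17 members (23.9%) and 13.4% of all. AAGATGG, the core of the YY1 site, stood in 10 (14.1%) and 6.67%, and AAGGTCA, the element of the receptor ESRRA, in 8 (11.3%) and 3.88%. For the general motifs the shares were close, with the GC box GGGCGGG in 33.8% of members and 38.1% of all and the TATA box TATAAA in 9.86% and 11.2%. The median GC content was 57.3% in members and 58.0% in all. Of the members with promoter H3K27ac in cKO alone, Ndufaf8 held the ETS, YY1 and GC box letters in the 300 bp. Atp5l held the NRF1, ETS, ESRRA and TATA letters, and Cox6a1 the NRF1, ETS and GC box letters. Ndufs7, whose sequence is not printed, held the YY1 and TATA letters. Cox7a1, Cox7a2 and Atp5o held none. A match describes letters in this window and not binding.

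The place of H3K27ac around the start differed between the WT and cKO lists. These lists were also called against different controls, so genotype and control cannot be told apart here either. At the start base itself WT regions covered 29 and 31 of 94 members (30.9% and 33.0%), and their profiles peaked inside the gene, at 52.1% and 53.2% of members. In cKO the start base was covered at 57 and 73 members (60.6% and 77.7%), close to the peaks of 64.9% and 78.7%. In WT 31.9% and 33.0% of members were covered 500 bp before the start and 50% and 51.1% were covered 500 bp after it, so that coverage stayed level up to the start and rose inside the gene. In cKO the values were 33.0% and 51.1% before the start and 58.5% and 75.5% after it, so that most of the rise came before the start. The cKO lists covered less of the genome, with 46.2 and 62.0 Mb against 89.6 and 74.8 Mb in WT. Over all genes the start base was covered at 14.7% in both WT lists and at 25.2% and 33.8% in the cKO lists. At 500 bp before the start these shares were 15.9% and 14.1% in WT and 17.3% and 24.95% in cKO.

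**Figure D5:**
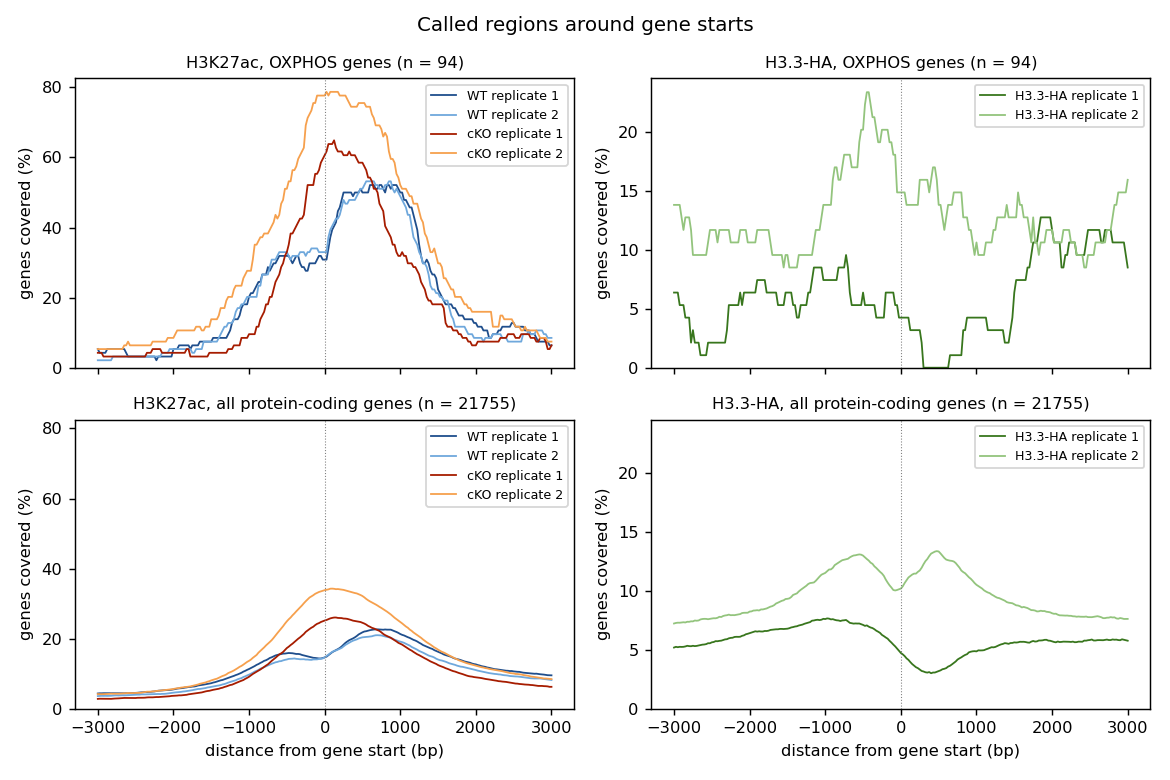
Percent of genes covered by a called region (y axis) at each distance from the gene start, in bp with positive values inside the gene (x axis), for H3K27ac (left) and H3.3-HA (right) in the 94 gene records (top) and all 21755 genes (bottom), 1 line per library. At distance 0 the cKO H3K27ac lines of the members stand at 60.6% and 77.7% and the WT lines at 30.9% and 33.0%.

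The start base was covered in both cKO lists and no WT list at 26 members (27.7%), against 11.9% of all genes, and the reverse held for 0 members and 1.20% of all genes. This readout was chosen after the profiles were seen. Of these members 7 belong to complex I, 3 are its assembly factors, 2 belong to complex II (Sdhb and Sdhd), 3 to complex III, 6 to complex IV and 5 to complex V. Uqcrh, the hinge protein of complex III, was among them, with 625 and 550 bp of the window covered in WT and 1435 and 2001 bp in cKO. Among genes with a promoter region in all 4 lists the share was 15 of 49 members (30.6%), against 29.3%. In that class the members' share was therefore near the background.

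The covered length of the window was compared as well, a measure also chosen after values were seen. Both cKO lists exceeded both WT lists by at least 200 bp at 22 of 81 members (27.2%), against 32.8% of genes with a region in a list. They fell short by as much at 4 members (4.94%), against 8.05%. Beside the 5 genes above, the longest gaps were at Uqcrq, a small subunit of complex III, with 791 and 761 bp in WT and 1820 and 1968 bp in cKO, and at Ndufaf1, with 501 and 628 bp in WT and 1653 and 1608 bp in cKO. Ndufaf1 was thus lower in H3K36me3 over its body and longer in H3K27ac at its promoter. So was Ndufb7, with 937 and 883 bp in WT and 1176 and 1262 bp in cKO. Of the 6 members lower in H3K36me3, 5 had promoter H3K27ac in all 4 lists. Of all members 49 of 94 had it there, and of all genes 4873 of 21755. The shorter members were Ndufb11 and Ndufb8 (accessory subunits of complex I), its assembly factor Ndufaf5, and Sdhc, the membrane anchor of complex II, with 1890 and 1685 bp in WT and 0 and 1214 bp in cKO.

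H3.3-HA was called at the promoters of 17 members in replicate 1 and 36 in replicate 2. Both lists had it at 12 (12.8%), against 13.4% of all genes, and neither at 53. The share in replicate 1 was 18.1%, against 17.1% of all genes, and in replicate 2 it was 38.3%, against 28.5%. Members thus stood above the background in replicate 2 and near it in replicate 1 and in both. With regions of at least 1 kb there were 3 (3.19%), against 4.69%. Atp5e, the ε subunit of the ATP synthase, had 919 and 932 bp of its window covered. Ndufa4l2, a paralog of Ndufa4 known for its induction in hypoxia, had 833 and 914 bp without H3K27ac or H3K36me3 in any list. Cox7a1 had 501 and 1222 bp, and Atp5o, the OSCP subunit, 434 and 1057 bp. Sdhc had 501 and 797 bp, and Atp5b 286 and 677 bp.

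The remaining 6 were Ndufb10, Ndufb6 and Ndufs3 of complex I, its assembly factor Ndufaf6, Uqcr11 of complex III and Atp5h of the peripheral stalk of the ATP synthase. Their coverage ran from 135 to 2001 bp, and replicate 2 exceeded replicate 1 in each. Replicate 2 covered more of the window than replicate 1 at all 12 promoters. At 4 of the 12, namely Ndufs3, Ndufaf6, Uqcr11 and Atp5h, the regions of the lists did not overlap each other. At Ndufs3 they lay at chr2:90903686-90904186 and chr2:90904680-90905310.

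H3.3-HA was set beside H3K27ac. Of the 55 members with promoter H3K27ac in both WT lists, 6 had promoter H3.3-HA in both lists (10.9%), against 28.6% of the 6110 genes of that class. In their bodies 18 of the 55 had H3.3-HA in both lists (32.7%), against 68.4%. Of the 22 members without promoter H3K27ac in WT, 2 had promoter H3.3-HA in both (9.09%), against 5.13%. Of the members 15 of 94 were over 20 kb long, against 10068 of 21755 genes, and a longer body can hold more regions. The part of length in the body counts was not tested.

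The other genes of the system were read from a list of 45 assembly factors, carriers and electron-transfer proteins. 41 had H3K36me3 in a list, with a median WT coverage of 39.8%. 1 was higher in cKO (2.44% of the 41, against 2.64% of all genes), namely Cox20, a chaperone for subunit 2 of complex IV, with 37.4% and 40.5% in WT and 74.2% and 72.4% in cKO. 3 were lower (7.32%, against 10.9%). Acad9, an assembly factor of complex I, had 64.7% and 61.4% in WT and 13.1% and 50.7% in cKO. Uqcc1, an assembly factor of complex III, had 40.1% and 46.1% in WT and 5.72% and 18.3% in cKO. Tmem186, of the complex I assembly machinery, had 39.8% and 36.8% in WT and 0% and 14.4% in cKO. At Cox20 the cKO libraries differed by less than the WT pair did.

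Promoter H3K27ac was present in both WT lists at 26 of the 45 and in both cKO lists at 34. It was called in cKO alone at 4 (8.89%, against 4.13% of all genes). Cyc1, the cytochrome c1 of complex III, had 0 bp in both WT lists and 809 and 1724 bp in cKO. Foxred1, an assembly factor of complex I, had 1661 and 1952 bp in cKO, Sdhaf2, which serves the flavin attachment of Sdha, 1359 and 1322 bp, and Bcs1l, which inserts the Rieske protein, 861 and 1198 bp. All 3 had 0 bp in WT. In WT alone it was called at 2 (4.44%, against 1.66%). These were Sdhaf4, an assembly factor of complex II, with 1057 and 1033 bp, and Ecsit, of complex I assembly, with 501 and 501 bp. H3.3-HA stood in both lists at 11 of the 45 (24.4%, against 13.4%).

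Of 19 regulators of mitochondrial genes and mitochondrial DNA, 18 had H3K36me3, with a median WT coverage of 58.6%. Ppargc1a, the coactivator PGC-1α, had none. 3 were lower in cKO (16.7% of the 18, against 10.9% of all genes) and 0 higher, against 2.64%. The receptor gene Esrra had 59.6% and 57.7% in WT and 16.7% and 40.6% in cKO. Gabpb1, a subunit of GABP, had 30.8% and 36.6% in WT and 8.47% and 17.3% in cKO. Twnk, the helicase of mitochondrial DNA, had 36.01% and 37.8% in WT and 7.06% and 17.0% in cKO. Promoter H3K27ac was in both cKO lists and no WT list at 2 of the 19 (10.5%, against 4.13%). These were Tfb1m, a mitochondrial rRNA methyltransferase, with 1586 and 1964 bp, and Twnk, with 132 and 552 bp. Tfam, which packages mitochondrial DNA, was the single gene with the reverse (5.26%, against 1.66%), with 1358 and 422 bp in WT and 0 bp in both cKO lists.

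Neighbours limit what single members show. Another protein-coding start lay within 1 kb of 35 members, and another protein-coding record overlapped the body of 28. Of the 59 members with no such start, 59.3% had promoter H3K27ac in both WT lists, and of the other 35, 57.1%. Of the 66 bodies without an overlap the median WT H3K36me3 coverage was 42.8%, and of the 28 with one 50.8%.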

How the data were processed

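The authors aligned paired-end CUT&RUN reads to mm10 with Bowtie2 2.3.4.1 and called regions with HOMER in histone mode, per library and without pooling. Per the file headers the peak size was 500 bp and the minimum distance 1000 bp, with 4-fold enrichment over IgG and a Poisson p of 1e-04 over IgG and over 10000 bp around. The deposited lists hold region starts and ends, and their score is constant, so signal and read counts per region were not analysed and the count-based differential test of the study was not run. The 5 IgG samples enter only as controls of the calling.

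Regions were merged per list and intersected with GENCODE M21 genes in python 3.11.15 (numpy 2.4.6, pandas 2.3.3), tested on simulated data. Groups and replicate numbers came from the labels, which call the WT and cKO replicates biological. Whether numbers pair samples was checked by correlating same-numbered deviations (0.0749 for H3K36me3, 0.0144 for H3K27ac). Members and lists were chosen with earlier results of these data known. Genes named were the 10 highest and all absent in H3K36me3, up to 10 called in each direction, up to 15 with promoter H3.3-HA in both lists, the paralogs, the central subunits, and up to 5 called genes per comparison of the related lists. Alternatives changed region width, list size, gene body, gap, promoter window, overlap, start, pairing and libraries.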

Additional observations from a re-analysis of the deposited data

How the results depend on the processing

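Beyond the values below, 52 of 79 alternative values of the summary counts and medians stayed within 1.5 times the main count or within 1 SD of the WT library medians. With regions of at least 1 kb, members with promoter H3K27ac in both cKO and no WT lists numbered 9 (9.57%, against 5.57% of all genes), the reverse 2 (2.13%, against 1.57%), those with promoter H3.3-HA 3, and the median WT H3K36me3 coverage was 40.1%. With lists of equal number, members with H3K27ac in cKO alone numbered 10 (10.6%, against 7.24%). A gap of 20 points left 0 higher and 2 lower members in H3K36me3, among 1.10% and 3.14% of all genes, and any gap gave 5 and 28, among 8.11% and 38.4% of all genes. A promoter of 500 bp each side gave 0 members with H3K27ac in WT alone, against 1.5% of all genes. It gave 5 with H3.3-HA (5.32%, against 8.05%), and one of 2 kb gave 20 with H3.3-HA (21.3%, against 20.4%).

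Leaving out 1 library in turn gave 2 to 7 higher and 6 to 52 lower members in H3K36me3, 6 to 12 with promoter H3K27ac in cKO alone and 1 to 6 in WT alone. The shares over all genes ran from 2.84% to 13.7%, 11.1% to 54.1%, 4.67% to 7.24% and 2.40% to 4.84%. Promoter H3K27ac was then in WT at 62 to 65 members (66.0% to 69.1%, against 32.1% to 33.6% of all genes). In cKO it was at 68 to 78 (72.3% to 83.0%, against 34.0% to 39.6%). H3.3-HA was at 17 to 36 (18.1% to 38.3%, against 17.1% to 28.5%), and the median was 45.9% to 47.6%. Restricting to members without an overlapping gene was chosen after seeing the data, and gave a median of 42.8%. Of 61 such members with H3K36me3, 1 was higher (1.64%, against 2.64% of all genes) and 3 lower (4.92%, against 10.9%). Restricting to the 59 members with no other start within 1 kb was also chosen later. It gave 0 with H3K27ac in WT alone, against 1.66% of all genes. Both WT lists had it at 35 (59.3%, against 28.1%) and both cKO lists at 42 (71.2%, against 32.2%). The shares over all genes were not restricted in this way. The replicate block asked same-numbered pairs to agree. In H3K36me3 it gave 2 higher members (2.3%, against 3.44% of all genes) and 9 lower members (10.3%, against 15.6%). Promoter H3K27ac was then in cKO alone at 5 members (5.32%, against 4.13%) and in WT alone at 1 (1.06%, against 1.66%). The replicate numbers were not shown to pair samples.

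Of 146 values of single called members under these alternatives, leaving aside the 2 restricted sets of members, 15 lost their call and 0 changed direction. A gap of 20 points and regions of at least 1 kb each took 6 of these calls, a promoter of 500 bp 2 and lists of equal number 1. No call could be lost by leaving out a WT or cKO library, by the replicate block or by any gap. The rule is then no stricter, and the direction was fixed as well. These values were 14 for each library left out, 14 for the block and 8 for any gap, and they do not test the calls. The gap of 20 points and the overlap of 200 bp left the differences unchanged, so their direction was fixed too. Region lists hold no height, so a region under the calling threshold cannot be told from an absent one, and 2 libraries per group bound every comparison.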
